A study of Mus musculus with 24 samples.

Results

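The collagens and interstitial matrix genes described here are 37 genes whose products form, bind or process the connective tissue between muscle cells. A gene was read when the platform annotation gave at least 1 probe set (a group of short probes on the array for a transcript) with that gene as its single symbol, and its brightest such probe set in a tissue stood for it. Of the 37 genes, 35 could be read, among 18193 genes on the array read in the same way. Fbn1 (fibrillin-1) and Loxl2 (a lysyl oxidase) were not analysed here, the first for want of a listed probe set and the second because its probe sets carry a further symbol. All 35 passed the filter on dim probe sets in both tissues.

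Interstitial matrix is laid down mainly by fibroblasts. Fibrillar collagens give tissue its tensile strength, microfibrils and elastin give recoil, and glycoproteins and small leucine-rich proteoglycans sit on the fibrils, tie them to cell receptors and hold growth factors such as TGF-beta. In muscle that lacks dystrophin, the protein that links the cytoskeleton of the fibre to the matrix outside it, repeated rounds of fibre damage and repair are followed by build-up of this matrix, known as fibrosis.

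Expression was measured on 24 Affymetrix arrays, with 1 array for the heart and 1 for the gastrocnemius, a calf muscle, of each of 12 male mice aged 2 months, in 4 genotypes with 3 animals each. Cmah KO mdx mice carry both defects. The mdx mice carry a mutation of Dmd and so lack dystrophin. Cmah KO mice lack the enzyme that makes the sialic acid Neu5Gc, a sugar at the ends of glycan chains that humans cannot make, and WT mice carry neither defect. The strain label is C57BL6/10J for Cmah KO mdx and mdx mice and C57BL/6J for Cmah KO and WT mice, so strain and dystrophin loss cannot be told apart.

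Dmd itself averaged 8.18 ± 0.56 in Cmah KO mdx, 8.37 ± 0.28 in mdx, 10.15 ± 0.14 in Cmah KO and 10.16 ± 0.10 in WT gastrocnemius (log2 intensity, SD, n = 3 each), so the dystrophin labels stood apart there. In heart Dmd averaged 8.52 ± 0.33 in Cmah KO mdx, 8.86 ± 0.37 in mdx, 9.25 ± 1.10 in Cmah KO and 9.96 ± 0.10 in WT, and pooled dystrophin loss, -0.92 ± 0.37, was not called (adjusted p from limma = 0.999). The Cmah probe set did not separate the Cmah labels in either tissue. All 6 cardiac muscle markers were higher, and all 6 skeletal muscle markers lower, in heart than in gastrocnemius. Heart arrays of Cmah KO replicate 3 and Cmah KO mdx replicate 2 stood apart, with a log2 difference of 4.29 and 4.43 between the Gapdh control probe sets at both ends of the transcript against 0.36 to 1.60 on the other arrays. Heart medians over the matrix genes are given with and without these deviating arrays. Of the single genes in heart, Col8a1 and Aspn are given both ways, and the others with all arrays unless stated. In gastrocnemius 1 array of each genotype (Cmah KO mdx replicate 1, mdx replicate 1, Cmah KO replicate 1 and WT replicate 3) had a higher bioB hybridization control (an RNA added to every sample before hybridization), 10.85 to 11.32 against 8.91 to 10.18 on the others, and a Gapdh difference of 0.76 to 1.02 against 0.36 to 0.71. On these 4 arrays the matrix genes read lower than on the other 2 arrays of their genotype, by a median of -0.75 in Cmah KO mdx, -0.66 in mdx, -0.41 in Cmah KO and -0.44 in WT muscle on the log2 scale. The heart arrays of the same 4 animals (Cmah KO mdx replicate 1, mdx replicate 2, Cmah KO replicate 1 and WT replicate 2) had bioB at 9.99 to 10.68 against 9.02 to 9.69, and a Gapdh difference of 0.98 to 1.60 against 0.44 to 0.54, on the heart arrays that did not deviate. Their matrix genes read lower than the rest of their genotype by a median of -0.43 in Cmah KO mdx, -0.45 in mdx and -0.38 in WT hearts, and higher by 0.76 in Cmah KO hearts, the rest including a deviating array in Cmah KO mdx and in Cmah KO. All 8 are called the high-control arrays below, and the part they play in the results was not tested beyond the within-set values given.

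The promoters of 3 genes that carry the main differences are shown, because these genes passed a test of dystrophin loss or of its difference between the tissues. The RefSeq promoter table (GRCm38.p6) held 25 windows for 21 of the 37 genes. It held none for Cthrc1, which passed both tests and is therefore not shown. Each sequence is the 250 bases before the listed start, read 5′ to 3′ on the strand of the gene. Capitals mark 3 motifs searched on both strands. The motif TATAAA is known as the TATA box. The GC box was searched as GGGCGG, which reads CCGCCC on the other strand, and the core of the Smad-binding element was searched as CAGAC, which reads GTCTG on the other strand. Postn on the plus strand is chr3:54360857-54361106, Bgn on the plus strand is chrX:73483351-73483600 and Col8a1 on the minus strand is chr16:57754738-57754987.
Postn: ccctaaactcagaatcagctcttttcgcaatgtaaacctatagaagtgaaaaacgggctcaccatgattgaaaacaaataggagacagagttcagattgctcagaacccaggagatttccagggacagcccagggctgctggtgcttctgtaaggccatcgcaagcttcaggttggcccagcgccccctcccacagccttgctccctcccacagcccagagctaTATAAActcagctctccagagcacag
Bgn: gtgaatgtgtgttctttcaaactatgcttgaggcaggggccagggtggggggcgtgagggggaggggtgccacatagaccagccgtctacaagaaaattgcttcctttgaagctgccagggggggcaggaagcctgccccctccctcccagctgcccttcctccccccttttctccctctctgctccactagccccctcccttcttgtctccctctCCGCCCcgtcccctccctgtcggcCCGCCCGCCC
Col8a1: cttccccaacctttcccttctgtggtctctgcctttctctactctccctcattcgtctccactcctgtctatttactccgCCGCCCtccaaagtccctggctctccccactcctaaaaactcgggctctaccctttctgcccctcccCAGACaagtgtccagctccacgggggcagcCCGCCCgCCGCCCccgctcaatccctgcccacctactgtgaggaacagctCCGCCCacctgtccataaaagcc

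The Postn window held a TATA box that began 26 bases before the start, and neither of the other motifs. A second listed Postn start, with its window at chr3:54359017-54359266, had 1 CAGAC match and no TATA box. The Bgn window held no TATA box and 3 GC boxes, of which the last 2 overlap, and the Col8a1 window held 4 GC boxes and 1 CAGAC. Over the 25 windows of matrix genes, 7 (28%) held a TATA box, 15 (60%) a GC box and 13 (52%) CAGAC, against 12.4%, 32.7% and 42.2% of all 32851 windows in the table. Windows, not genes, are counted. The windows of Tnc overlap and share a TATA box and a GC box, and those of Fbln1 share their CAGAC matches, so these matches count in both windows. These matches describe the letters in the windows and do not show sites in use.

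Loss of dystrophin was first read in gastrocnemius, as the mean of the Cmah KO mdx and mdx groups minus the mean of the Cmah KO and WT groups. Cthrc1, Col8a1 and Bgn rose, by 7.11-fold, 2.8-fold and 1.97-fold, and no matrix gene fell. The Cthrc1 fold is taken against dim levels and depends on how these are scaled, being 2.30 on the log2 scale after 16 was added to each intensity, against 2.83 without. That is 3 of 35 called, where 1.2% of the 13224 genes tested were called in either direction and 1.04% as higher. Of the 35 differences 34 lay above 0, against 52% of all genes. Their median was 0.64, against 0.02 over all genes, on the log2 scale. A gene was called when the Benjamini-Hochberg adjusted p of limma's moderated test over all probe sets was below 0.05, and every difference below is a log2 difference with its standard error unless a level is named. An unadjusted p below 0.05 was reached by 19 of the 35 and by 12.5% of all genes. In 5 of the 35 (Col6a1, Col6a2, Col8a1, Cthrc1 and Bgn) every one of the 6 dystrophin-deficient arrays lay above all 6 others, which held for 1.73% of all genes. On arrays of whole tissue, a change in the number of cells of a type and a change in RNA per cell cannot be told apart.

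**Figure D1:**
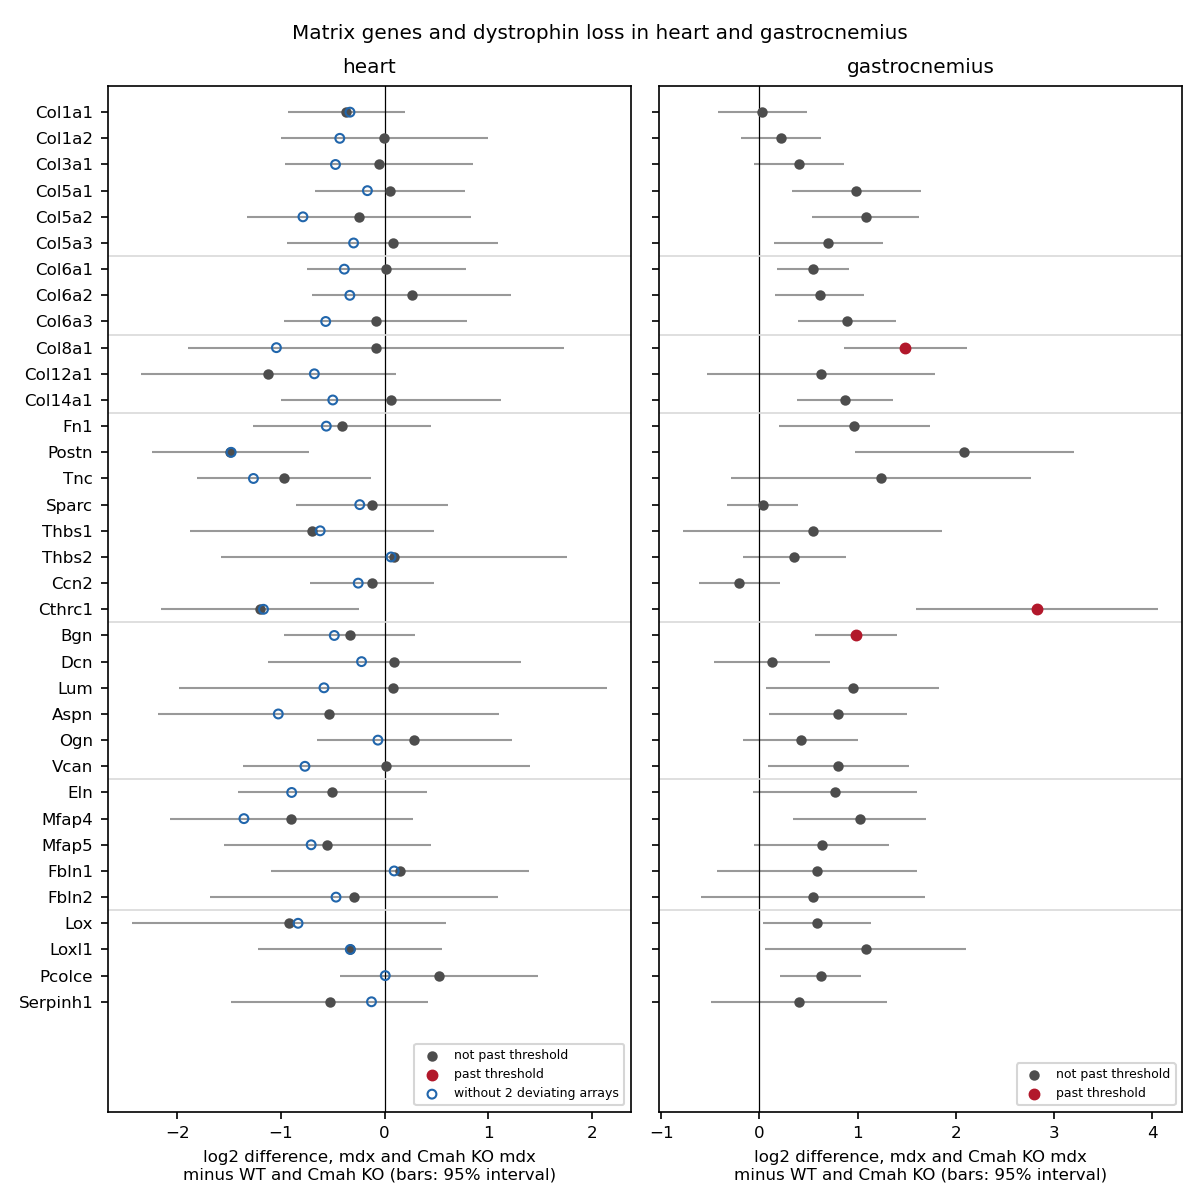
Log2 difference for dystrophin loss (x axis, mean of Cmah KO mdx and mdx minus mean of Cmah KO and WT) of the 35 matrix genes (rows, ordered by role), in heart on the left and gastrocnemius on the right. Filled points are the fitted values with 95% intervals, red where the adjusted p is below 0.05, and open blue circles are heart values without the 2 deviating arrays. In gastrocnemius 34 of 35 points lie right of 0 and Cthrc1, Col8a1 and Bgn are red, whereas no heart point is red.

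The fibrillar collagens include the chains of types I and III, the bulk of the interstitial fibrils, and of type V, which sits inside the fibrils and limits their width. None of the 6 was called, and their median difference was 0.55. Col1a1 read 12.79, 11.93 and 12.31 in Cmah KO mdx, 12.64, 12.40 and 12.74 in mdx, 12.62, 12.05 and 12.23 in Cmah KO and 12.29, 12.72 and 12.73 in WT muscle. Its groups overlapped throughout, and the difference was 0.03 ± 0.21 (95% interval -0.42 to 0.48, adjusted p from limma = 0.993). Col1a2 read 12.64, 12.84 and 12.87 in Cmah KO mdx, 12.57, 12.89 and 13.01 in mdx, 12.20, 12.66 and 12.57 in Cmah KO and 12.94, 12.73 and 12.39 in WT muscle, a difference of 0.22 ± 0.18 with overlapping groups. Col3a1 read 12.33, 12.88 and 12.54 in Cmah KO mdx, 12.36, 12.64 and 13.04 in mdx, 11.67, 12.12 and 12.32 in Cmah KO and 12.71, 12.32 and 12.20 in WT muscle. Its Cmah KO mdx arrays lay just above the Cmah KO arrays, while mdx and WT overlapped, and the pooled difference was 0.41 ± 0.21.

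Type V chains had the larger differences within this group. Col5a2 read 11.09, 12.08 and 11.69 in Cmah KO mdx, 10.89, 11.64 and 11.46 in mdx, 9.96, 10.03 and 10.30 in Cmah KO and 11.26, 10.48 and 10.33 in WT muscle. The Cmah KO mdx arrays were all above the Cmah KO arrays, and WT replicate 1 reached into the mdx range. Its difference was 1.08 ± 0.25 (adjusted p from limma = 0.0769). Col5a1 read 10.11, 10.74 and 10.99 in Cmah KO mdx, 10.03, 11.02 and 11.20 in mdx, 9.02, 10.03 and 9.38 in Cmah KO and 9.93, 10.46 and 9.34 in WT muscle, and its difference was 0.99 ± 0.30 (adjusted p = 0.198). Col5a3 read 9.06, 9.33 and 9.63 in Cmah KO mdx, 8.33, 9.39 and 9.68 in mdx, 8.34, 8.52 and 8.05 in Cmah KO and 8.55, 9.09 and 8.64 in WT muscle, with a difference of 0.70 ± 0.25 (adjusted p = 0.315). For both, the Cmah KO mdx arrays stood clear of the Cmah KO arrays and the mdx and WT arrays overlapped.

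Collagen VI forms beaded microfibrils next to the basement membrane of the muscle fibre, and mutations of its genes cause human muscle disease. None of its 3 chains was called, with differences of 0.55 ± 0.17 for Col6a1, 0.61 ± 0.21 for Col6a2 and 0.89 ± 0.23 for Col6a3 (adjusted p 0.215, 0.270 and 0.117). Col6a1 read 11.90, 12.09 and 12.20 in Cmah KO mdx, 11.69, 11.89 and 11.82 in mdx, 11.24, 11.53 and 11.14 in Cmah KO and 11.66, 11.46 and 11.29 in WT muscle. Col6a2 read 11.80, 11.25 and 11.48 in Cmah KO mdx, 11.45, 11.45 and 11.16 in mdx, 10.95, 10.98 and 10.14 in Cmah KO and 10.75, 11.00 and 11.08 in WT muscle. Neither overlapped between dystrophin-deficient and other muscle, and the gap was small, with the lowest dystrophin-deficient array barely above the highest other array. Col6a3 read 10.25, 11.00 and 10.58 in Cmah KO mdx, 10.34, 10.81 and 11.30 in mdx, 9.50, 9.89 and 9.51 in Cmah KO and 10.37, 9.80 and 9.87 in WT muscle, and here a WT array and a pair of dystrophin-deficient arrays met.

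Among the other collagens, Col8a1, a short-chain network collagen known from vessel walls, read 9.23, 10.13 and 9.05 in Cmah KO mdx, 9.49, 9.71 and 9.49 in mdx, 8.52, 7.46 and 7.23 in Cmah KO and 7.87, 8.29 and 8.79 in WT muscle. All 6 dystrophin-deficient arrays lay above all 6 others. Its difference was 1.49 ± 0.29 (95% interval 0.86 to 2.11, adjusted p from limma = 0.0395), and 2 further Col8a1 probe sets passed as well, at 1.36 and 1.33 (adjusted p = 0.0220 and 0.0395). Leaving out an array in turn gave adjusted p between 0.0245 and 0.123, below the threshold only without Cmah KO mdx replicate 1, Cmah KO replicate 1 or WT replicate 3. Col14a1 and Col12a1 encode collagens that coat the fibril surface. Col14a1 read 8.77, 9.26 and 9.43 in Cmah KO mdx, 9.05, 8.80 and 8.85 in mdx, 7.78, 8.47 and 7.88 in Cmah KO and 8.77, 7.94 and 8.09 in WT muscle, a difference of 0.87 ± 0.22 (adjusted p = 0.114), and WT replicate 1 met the lowest dystrophin-deficient array. Col12a1 read 6.98, 8.97 and 8.68 in Cmah KO mdx, 6.95, 8.46 and 8.59 in mdx, 6.90, 7.99 and 7.86 in Cmah KO and 8.18, 8.27 and 5.65 in WT muscle, spread so widely within each genotype that its difference of 0.63 ± 0.53 was smaller than that spread.

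The cell-matrix glycoproteins held the largest difference. Cthrc1, a secreted glycoprotein with a short collagen-like repeat, read 5.61, 9.64 and 8.38 in Cmah KO mdx, 6.93, 8.00 and 7.07 in mdx, 4.28, 4.30 and 4.76 in Cmah KO and 5.58, 5.48 and 4.26 in WT muscle. The levels without dystrophin loss lay around the 40th percentile of all probe sets in gastrocnemius (4.66), and every dystrophin-deficient array was higher, if only just for Cmah KO mdx replicate 1. The difference was 2.83 ± 0.56 (95% interval 1.59 to 4.06, adjusted p from limma = 0.0445). Its adjusted p ran between 0.00237 and 0.143 when an array was left out in turn and stayed below the threshold only without Cmah KO mdx replicate 1. It was 0.0561 with 16 added to each intensity and 0.0611 with no filter.

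Periostin, encoded by Postn, binds integrins and collagen fibrils and is known from healing tissue. Postn read 9.70, 12.25 and 11.32 in Cmah KO mdx, 9.97, 11.39 and 10.74 in mdx, 7.47, 8.42 and 9.11 in Cmah KO and 10.61, 8.45 and 8.78 in WT muscle. WT replicate 1, at 10.61, reached into the dystrophin-deficient range, and the other 5 arrays of Cmah KO and WT muscle lay below all 6 dystrophin-deficient arrays. The difference was 2.09 ± 0.51, 4.25-fold, and missed the threshold (adjusted p from limma = 0.0991). Without WT replicate 1 the adjusted p was 0.0408, and without Cmah KO mdx replicate 1 it was 0.0349.

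Fn1 (fibronectin, a ligand of integrins) read 10.45, 11.63 and 11.48 in Cmah KO mdx, 10.66, 11.57 and 11.45 in mdx, 9.65, 10.97 and 10.38 in Cmah KO and 11.04, 10.00 and 9.42 in WT muscle. Tnc (tenascin-C, expressed at tendon and in injured tissue) read 6.98, 10.70 and 10.45 in Cmah KO mdx, 7.77, 10.60 and 9.58 in mdx, 7.18, 8.83 and 8.30 in Cmah KO and 8.48, 8.94 and 6.93 in WT muscle. Sparc (osteonectin, a collagen-binding protein) read 12.61, 12.60 and 12.68 in Cmah KO mdx, 12.66, 12.65 and 13.04 in mdx, 12.62, 12.42 and 12.73 in Cmah KO and 12.79, 12.65 and 12.83 in WT muscle. The arrays of Fn1 and Tnc overlapped between the groups, with the high-control array the lowest of its genotype in every group, and the Sparc arrays all lay within a narrow range. The differences were 0.96 ± 0.35 for Fn1 (adjusted p = 0.324), 1.24 ± 0.70 for Tnc (adjusted p = 0.656) and 0.04 ± 0.17 for Sparc (95% interval -0.33 to 0.40). Thbs1 and Thbs2, secreted thrombospondins, differed by 0.54 ± 0.60 and 0.35 ± 0.24. Ccn2 (connective tissue growth factor), a target gene of TGF-beta, was the sole gene of the 35 below 0, at -0.21 ± 0.19.

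**Figure D2:**
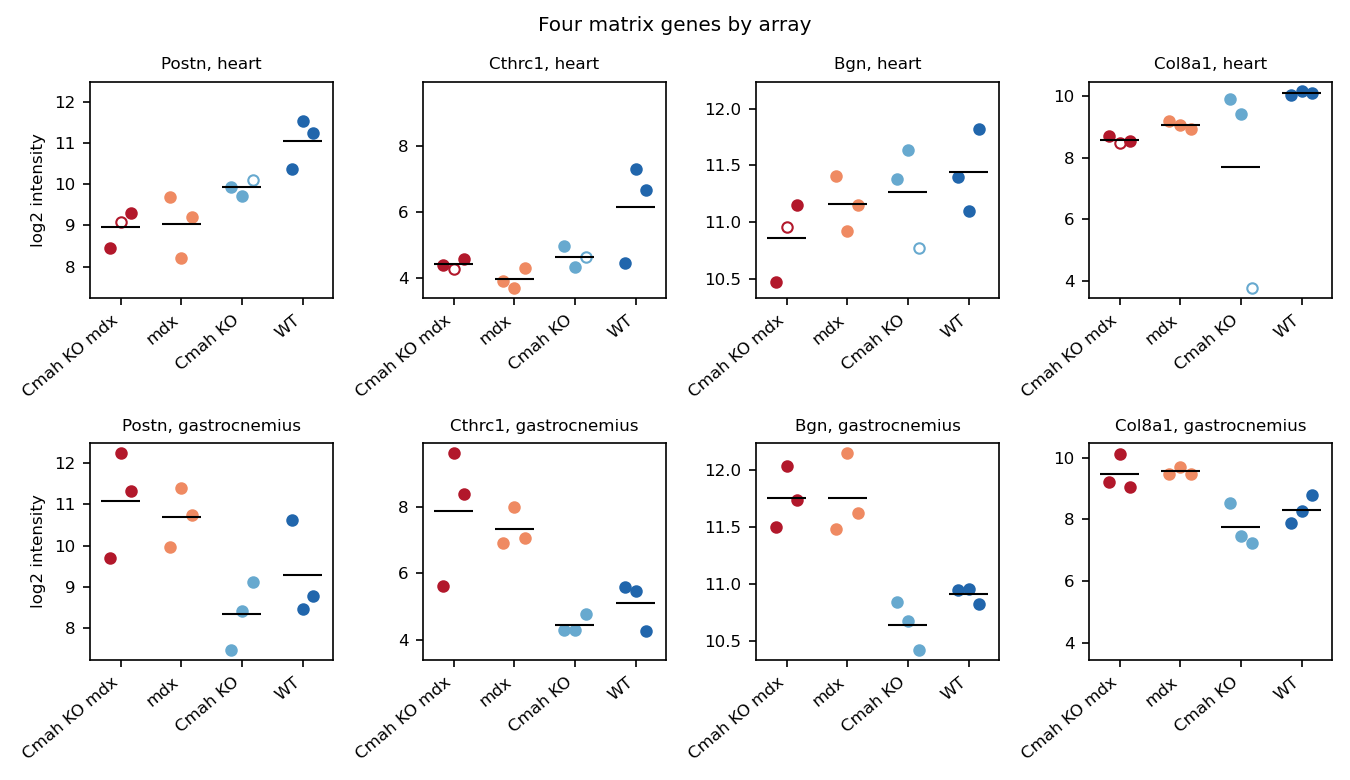
Log2 intensity (y axis) of Postn, Cthrc1, Bgn and Col8a1 on each array, by genotype, with heart above and gastrocnemius below. Dots are arrays, bars are means of 3 arrays, and open circles are the 2 deviating heart arrays. In gastrocnemius the Cmah KO mdx and mdx dots lie above the Cmah KO and WT dots except for WT replicate 1 in Postn, and in heart the Postn dots of both dystrophin-deficient genotypes lie below those of Cmah KO and WT.

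The proteoglycans of the list, 5 small leucine-rich proteins and versican, bind collagen fibrils or hyaluronan. Bgn (biglycan), which also binds dystroglycan and sarcoglycans of the complex that dystrophin belongs to, read 11.50, 12.03 and 11.74 in Cmah KO mdx, 11.48, 12.15 and 11.62 in mdx, 10.84, 10.67 and 10.42 in Cmah KO and 10.94, 10.96 and 10.82 in WT muscle. All 6 dystrophin-deficient arrays lay above all 6 others, with little spread within each genotype. The difference was 0.98 ± 0.19 (95% interval 0.56 to 1.40, adjusted p from limma = 0.0405), and 2 further Bgn probe sets gave 0.90 and 1.00 (adjusted p = 0.0448 and 0.0482). When an array was left out in turn, its adjusted p ran between 0.0357 and 0.134 and passed only without Cmah KO mdx replicate 1.

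Lum (lumican) read 8.17, 10.24 and 9.35 in Cmah KO mdx, 8.19, 9.10 and 9.99 in mdx, 7.71, 8.06 and 8.49 in Cmah KO and 9.02, 8.34 and 7.72 in WT muscle. Vcan (versican) read 8.54, 9.95 and 9.70 in Cmah KO mdx, 8.84, 10.34 and 8.87 in mdx, 8.43, 8.42 and 8.95 in Cmah KO and 8.17, 8.77 and 8.67 in WT muscle. Aspn (asporin) read 8.29, 10.37 and 9.28 in Cmah KO mdx, 9.06, 9.94 and 9.92 in mdx, 8.02, 8.40 and 8.60 in Cmah KO and 9.11, 8.94 and 8.99 in WT muscle. In all 3 the highest arrays were dystrophin-deficient and the lower dystrophin-deficient arrays met the others, with differences of 0.95 ± 0.40, 0.80 ± 0.33 and 0.80 ± 0.32 (adjusted p = 0.436, 0.405 and 0.398). Dcn (decorin, which binds TGF-beta) and Ogn (osteoglycin) differed by 0.13 ± 0.27 and 0.42 ± 0.27.

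Elastic fibres consist of an elastin core in a sheath of microfibrils. Mfap4, a microfibril-associated protein, read 8.83, 9.69 and 10.39 in Cmah KO mdx, 8.92, 9.89 and 9.87 in mdx, 8.13, 8.82 and 7.73 in Cmah KO and 8.98, 9.15 and 8.64 in WT muscle, with the Cmah KO mdx arrays just above the Cmah KO arrays and overlap between mdx and WT. Eln (elastin) read 8.50, 8.70 and 9.68 in Cmah KO mdx, 8.05, 9.26 and 9.72 in mdx, 6.91, 8.54 and 7.67 in Cmah KO and 8.57, 9.37 and 8.21 in WT muscle, with groups that overlapped. Mfap5, another microfibril protein, read 9.97, 11.40 and 11.01 in Cmah KO mdx, 10.21, 11.00 and 11.25 in mdx, 9.41, 10.61 and 10.03 in Cmah KO and 10.72, 10.28 and 9.99 in WT muscle, likewise with overlap. None of the 5 genes was called, and the differences were 1.02 ± 0.31 for Mfap4 (adjusted p = 0.199), 0.77 ± 0.38 for Eln and 0.64 ± 0.31 for Mfap5. Fbln1 read 7.28, 7.58 and 8.14 in Cmah KO mdx, 7.50, 7.66 and 8.07 in mdx, 6.47, 7.84 and 7.98 in Cmah KO and 7.90, 7.48 and 5.01 in WT muscle, a difference of 0.59 ± 0.47. It and Fbln2, at 0.55 ± 0.52, encode fibulins, which join elastic fibres and basement membranes.

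The genes of collagen processing and cross-linking were not called either. Pcolce, which speeds removal of the C-terminal propeptide of procollagen, read 11.94, 11.63 and 11.50 in Cmah KO mdx, 11.30, 11.09 and 11.73 in mdx, 10.91, 10.93 and 10.66 in Cmah KO and 11.10, 10.72 and 11.13 in WT muscle, a difference of 0.63 ± 0.19 (adjusted p = 0.198). Lox, the lysyl oxidase that cross-links collagen and elastin, read 10.10, 11.07 and 10.89 in Cmah KO mdx, 10.41, 11.17 and 10.25 in mdx, 9.95, 9.69 and 10.06 in Cmah KO and 10.17, 10.64 and 9.83 in WT muscle. Loxl1, a relative that acts on elastin, read 8.74, 9.87 and 10.21 in Cmah KO mdx, 8.37, 9.67 and 10.11 in mdx, 7.47, 9.41 and 8.40 in Cmah KO and 8.90, 9.10 and 7.19 in WT muscle. In these 3 genes the means of the dystrophin-deficient groups were higher and single arrays met, the differences being 0.59 ± 0.25 for Lox and 1.08 ± 0.47 for Loxl1. Serpinh1, the collagen chaperone of the endoplasmic reticulum, read 10.12, 11.52 and 11.41 in Cmah KO mdx, 9.82, 11.07 and 11.43 in mdx, 9.46, 10.67 and 11.29 in Cmah KO and 10.98, 10.70 and 9.84 in WT muscle, with an even wider spread and a difference of 0.41 ± 0.41.

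Dystrophin loss was then read in each Cmah background on its own, in pairs of groups that share no array. Cmah KO mdx minus Cmah KO gave 0 called of 35 by limma, where 0.189% of all genes were called, and 15 with an unadjusted p below 0.05 against 9.62% of all genes. In 15 of the 35 the Cmah KO mdx arrays all lay above the Cmah KO arrays, against 9.84% of all genes, and Ccn2 was the only 1 of the 35 that lay below without overlap, against 5.09%. For mdx minus WT, 0 were called (all genes 0.0302%), 4 had an unadjusted p below 0.05 (all genes 4.3%), and 7 lay above without overlap (all genes 4.45%).

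The same 34 genes lay above 0 in both pairs, as did 37.9% of all genes, where 52.2% of all genes did so on the Cmah KO background and 52.7% on the background with Cmah, and 6 (Col6a1, Col6a2, Col8a1, Col14a1, Cthrc1 and Bgn) had all dystrophin-deficient arrays above the others in both, against 2.38% of all genes. The median difference was 0.82 on the Cmah KO background and 0.63 on the background with Cmah. Cthrc1 differed by 3.43 ± 0.80 and 2.23 ± 0.80 in these 2 pairs, Postn by 2.76 ± 0.72 and 1.42 ± 0.72, and Col5a2 by 1.52 ± 0.35 and 0.64 ± 0.35. For 26 of 35 the difference on the Cmah KO background was the larger, against 51.9% of all genes. The test of that difference between the backgrounds called 0 of 35 by limma (all genes 0%) and gave 0 with an unadjusted p below 0.05 (all genes 0.87%), with a median of 0.28.

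Within the 4 high-control arrays the median difference for pooled dystrophin loss was 0.53, with 33 of 35 above 0, and within the other 8 arrays it was 0.76, with 34 of 35 above 0. Cthrc1 differed by 2.00 and 3.24 in these 2 sets of arrays, Postn by 1.71 and 2.28, Col8a1 by 0.70 and 1.88, and Bgn by 0.66 and 1.14. All 4 genes kept their direction within both sets. For Cthrc1, Col8a1 and Bgn this could not have come out otherwise, because their dystrophin-deficient arrays all lay above all the others. No test was made within the sets because a set holds as few as 1 array of each genotype.

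**Figure D3:**
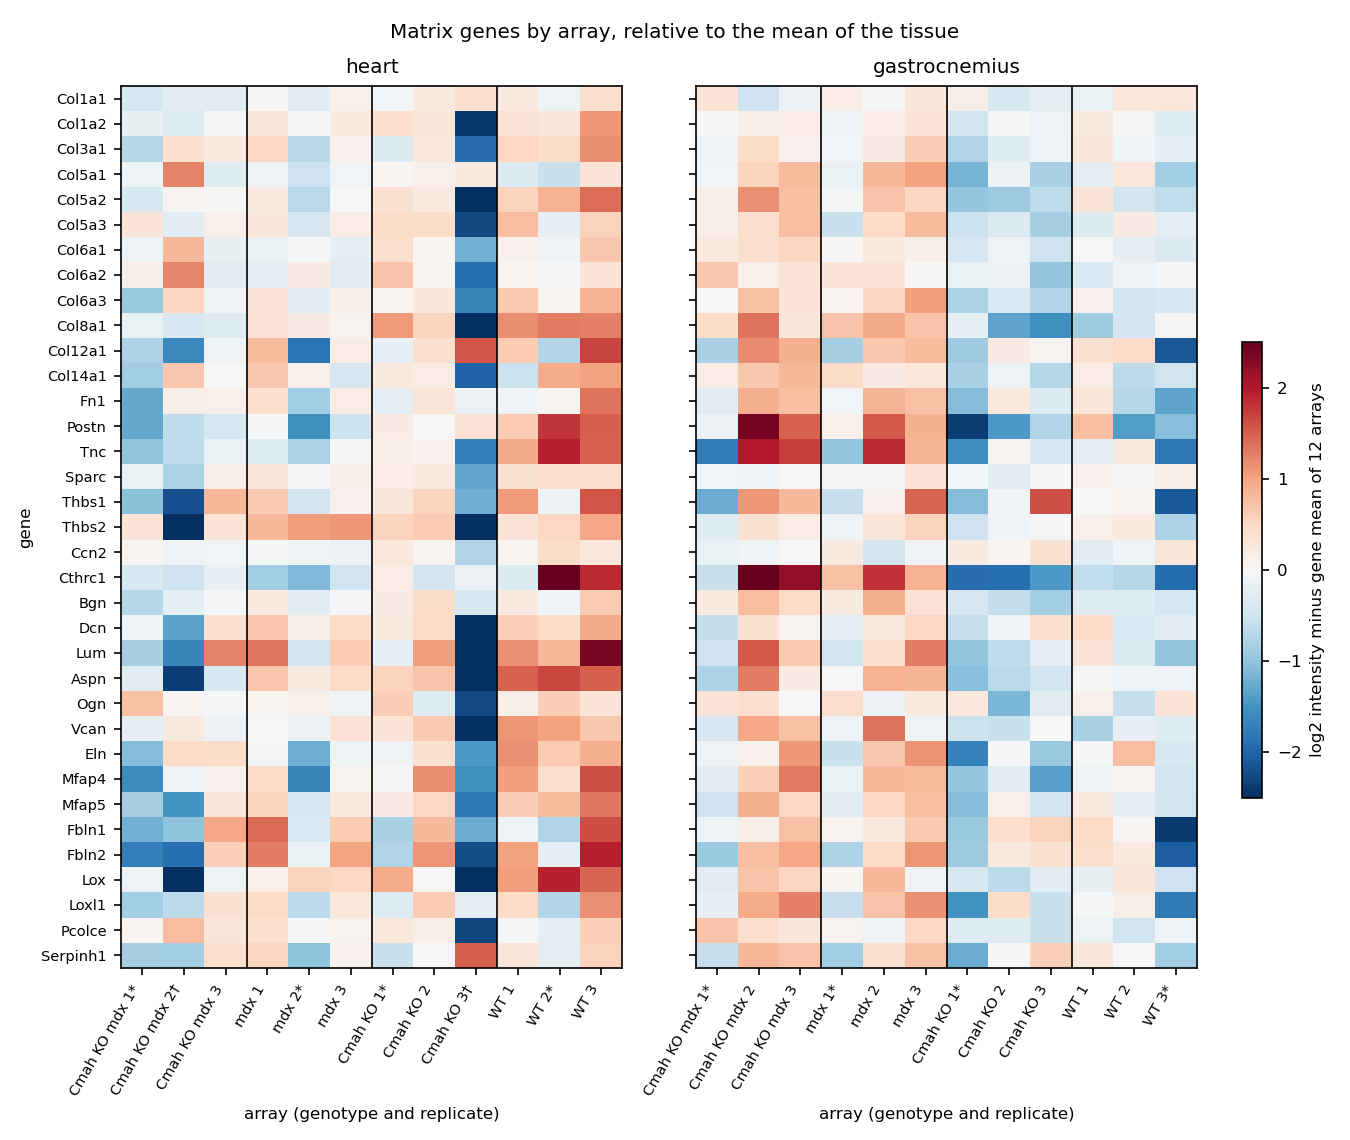
Log2 intensity minus the mean of 12 arrays in the tissue (colour) for the 35 matrix genes (rows) on each array (columns), in heart on the left and gastrocnemius on the right. An asterisk marks arrays of the 4 animals with the high bioB hybridization control in gastrocnemius, and a dagger the 2 deviating heart arrays. In gastrocnemius the 4 columns of Cmah KO mdx and mdx replicates 2 and 3 are above the gene mean for 30 to 32 of 35 genes, and in heart the column of WT replicate 3 is above it for all 35.

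Genes that act on the same matrix but are not among the 37 were read in 4 further lists. For collagen hydroxylation and folding, 0 of 19 tested genes were called in pooled dystrophin loss in gastrocnemius and 14 lay above 0 (median 0.21), and Crtap, of the prolyl 3-hydroxylation complex, had the smallest p (0.86 ± 0.22, adjusted p = 0.110), with P4ha3, a prolyl 4-hydroxylase subunit, and Bmp1, the procollagen C-proteinase (1.08 and 0.60). For the TGF-beta axis, 0 of 17 were called and 13 lay above 0 (median 0.09). Its smallest p belonged to Ltbp2, a microfibril protein of the latent TGF-beta binding family, at 2.25 ± 0.53 (adjusted p = 0.0826), and Tgfbr2, a TGF-beta receptor, and Tgfb1, a ligand, differed by 0.50 ± 0.22 and 0.93 ± 0.50. For matrix receptors, 0 of 18 were called and 16 lay above 0 (median 0.31), with Itga5, the fibronectin receptor subunit, at 0.55 ± 0.22, Cd44, a hyaluronan receptor, at 1.19 ± 0.48 and Cd47 at 0.59 ± 0.26.

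Among other interstitial matrix genes 2 of 19 rose. Cilp, a secreted matrix protein known to bind TGF-beta, read 11.25, 11.14 and 10.97 in Cmah KO mdx, 10.82, 10.87 and 10.84 in mdx, 9.57, 9.76 and 8.88 in Cmah KO and 9.80, 9.95 and 9.64 in WT muscle. It averaged 10.98 in dystrophin-deficient muscle and 9.60 in the other muscle, a difference of 1.38 ± 0.19 (adjusted p from limma = 0.00898), and its adjusted p stayed below 0.05 whichever array was left out (highest 0.0382), though not when both tissues were fitted together (0.139). Fbln7, a fibulin, averaged 8.88 and 7.35, a difference of 1.53 ± 0.27 (adjusted p = 0.0259), which was lost in 7 of 12 fits that left out an array (adjusted p up to 0.0887). Has2, a hyaluronan synthase, differed by 1.08 ± 0.36 and was not called.

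Markers of macrophages, regenerating muscle and fibroblasts moved with the matrix genes in gastrocnemius. Those of tendon were mixed, and those of adipocytes moved the other way. All 9 macrophage markers tested lay above 0 (median 1.39, 1 called, Fcgr1, whose call was lost in 10 of 12 fits that left out an array, with adjusted p up to 0.150), and their summed intensity was 8557 to 21863 in Cmah KO mdx, 10605 to 16738 in mdx, 4100 to 6379 in Cmah KO and 4473 to 11371 in WT muscle. All 7 markers of regenerating muscle lay above 0 (median 2.46), and Myh3, Myh8, Mymk and Myl4 rose. The 8 fibroblast markers tested also lay above 0 (median 0.45), 0 of them called, with a summed intensity of 14055 to 14476 in Cmah KO mdx, 14222 to 16533 in mdx, 11214 to 12279 in Cmah KO and 12134 to 13502 in WT muscle. Tendon markers lay above 0 in 4 of 7 (median 0.17), and all 4 adipocyte markers tested lay below 0 (median -0.93). The part of these cells in the matrix differences was not tested.

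Loss of Cmah alone, Cmah KO minus WT in gastrocnemius, gave 0 called of 35 by limma, as for all genes (0%), and 0 with an unadjusted p below 0.05 (all genes 0.968%). Of the 35, 27 lay below 0 (all genes 43.7%) and the median was -0.25, against 0.04 over all genes. The smallest p belonged to Eln (-1.003 ± 0.54), Col5a2 (-0.59 ± 0.35), Mfap4 (-0.70 ± 0.44), Aspn (-0.68 ± 0.46) and Col8a1 (-0.58 ± 0.40), whose arrays are given above. The Cmah KO arrays of Col5a2, Col5a3 and Aspn lay below the WT arrays without overlap, 3 of 35 against 1.43% of all genes.

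Loss of Cmah on the mdx background, Cmah KO mdx minus mdx, likewise gave 0 called by limma (all genes 0%) and 0 with an unadjusted p below 0.05 (all genes 0.855%). Here 19 genes lay above 0 (all genes 58.8%) and 16 below, with a median of 0.04 against 0.05 over all genes, and the values ran between -0.33 and 0.55. The smallest p belonged to Pcolce (0.32 ± 0.27), Col6a1 (0.27 ± 0.24), Col1a1 (-0.25 ± 0.29), Col5a2 (0.29 ± 0.35) and Col14a1 (0.25 ± 0.31). Only Col6a1 had all its Cmah KO mdx arrays above the mdx arrays, 1 of 35 against 2.81% of all genes. For the 3 genes that rose with dystrophin loss the 95% intervals were -1.20 to 2.29 for Cthrc1, -0.98 to 0.79 for Col8a1 and -0.59 to 0.60 for Bgn. With 3 arrays per group, effects of Cmah loss within these bounds were therefore not excluded.

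In heart no matrix gene was called in any comparison of genotypes, and no gene of the 13101 tested was either (0%). Pooled dystrophin loss gave a median of -0.12 against 0.17 over all genes, with 23 of 35 below 0 against 32% of all genes. Without the 2 deviating arrays the median was -0.49 with 32 of 35 below 0, against 0.00 over all genes, of which 50.6% lay above 0. Within the 4 high-control heart arrays the median was -0.65 with 1 of 35 above 0, and within the other 8 it was 0.03 with 19 above 0, or -0.39 with 5 above 0 once the 2 deviating arrays were left out. The unadjusted p was below 0.05 for 3 of the 35 and for 0.931% of all genes, all arrays included.

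Postn read 8.46, 9.09 and 9.29 in Cmah KO mdx, 9.68, 8.20 and 9.19 in mdx, 9.93, 9.72 and 10.10 in Cmah KO and 10.36, 11.52 and 11.23 in WT hearts. All 6 dystrophin-deficient hearts lay below all 6 others, the deviating arrays included, which held for 0.122% of all genes. The gap was small, with mdx replicate 1 at 9.68 and Cmah KO replicate 2 at 9.72. The difference was -1.49 ± 0.35 (adjusted p from limma = 0.999). Cthrc1 read 4.39, 4.28 and 4.58 in Cmah KO mdx, 3.91, 3.69 and 4.29 in mdx, 4.98, 4.32 and 4.64 in Cmah KO and 4.45, 7.31 and 6.65 in WT hearts, close to the 40th percentile of all heart probe sets (4.78) except on WT replicates 2 and 3. Tnc read 4.75, 5.09 and 5.55 in Cmah KO mdx, 5.42, 4.94 and 5.71 in mdx, 5.87, 5.83 and 4.03 in Cmah KO and 6.68, 7.68 and 7.20 in WT hearts, with all 3 WT arrays above every other array. The differences were -1.20 ± 0.44 for Cthrc1 and -0.97 ± 0.39 for Tnc (adjusted p = 0.999 and 0.999).

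Col8a1 in heart read 8.70, 8.47 and 8.53 in Cmah KO mdx, 9.20, 9.06 and 8.95 in mdx, 9.92, 9.41 and 3.76 in Cmah KO and 10.03, 10.16 and 10.12 in WT hearts, so that the deviating Cmah KO replicate 3 alone was far below the rest. Its difference was -0.08 ± 0.83 with all arrays and -1.04 ± 0.17 without the 2 deviating arrays (adjusted p = 0.736), where the remaining 5 dystrophin-deficient arrays lay below the remaining 5 others. Aspn read 8.74, 6.67 and 8.62 in Cmah KO mdx, 9.72, 9.24 and 9.51 in mdx, 9.58, 9.72 and 4.74 in Cmah KO and 10.49, 10.69 and 10.51 in WT hearts, with both deviating arrays far below the rest of their genotype, and differed by -0.54 ± 0.76 with all arrays and -1.02 ± 0.16 without them. Bgn read 10.47, 10.96 and 11.15 in Cmah KO mdx, 11.41, 10.93 and 11.15 in mdx, 11.38, 11.64 and 10.77 in Cmah KO and 11.40, 11.10 and 11.82 in WT hearts, with overlapping genotypes and a difference of -0.34 ± 0.29. Col1a1 read 10.64, 10.83 and 10.80 in Cmah KO mdx, 11.12, 10.83 and 11.21 in mdx, 11.02, 11.32 and 11.48 in Cmah KO and 11.33, 10.97 and 11.51 in WT hearts, and its difference was -0.37 ± 0.26.

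No mdx or WT heart array deviates, so the differences between these genotypes rest on no deviating array. Their standard errors and p values do, because the spread was estimated over all 12 heart arrays, the 2 deviating ones included. Without those 2 arrays in the fit, 0 of 35 matrix genes were called in this comparison as well. Of the 35 genes 32 lay below 0 (all genes 46%), the median was -0.41 against 0.03 over all genes, and 13 had all mdx arrays below all WT arrays, against 3.91% of all genes. The 13 were Col5a2, Col8a1, Postn, Tnc, Sparc, Ccn2, Cthrc1, Aspn, Ogn, Vcan, Eln, Mfap5 and Lox. An unadjusted p below 0.05 was reached by 4 of 35 and by 0.458% of all genes, namely Cthrc1 (-2.17 ± 0.62), Postn (-2.01 ± 0.49), Tnc (-1.83 ± 0.54) and Eln (-1.34 ± 0.59), and none passed after adjustment (adjusted p from limma = 1.00). Eln read 6.82, 8.37 and 8.36 in Cmah KO mdx, 7.88, 6.69 and 7.80 in mdx, 7.81, 8.28 and 6.47 in Cmah KO and 9.04, 8.55 and 8.78 in WT hearts, again with WT on top. WT replicate 3 was above the gene mean for all 35 genes, by a median of 1.08.

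Cmah KO mdx minus Cmah KO in heart gave a median of 0.04 (all genes 0.31), but each of these groups holds a deviating array, and without them it was -0.46 with 33 of 35 below 0. Over all genes the median was then -0.02, with 46.5% of genes above 0. Cmah KO minus WT gave -1.03 (all genes -0.43) and, without the deviating array, -0.41 with 29 of 35 below 0. The median over all genes was then 0.02, with 52.8% of genes above 0. With all arrays, the smallest p of Cmah KO minus WT belonged to Tnc (-1.95 ± 0.54, adjusted p from limma = 0.686). For Cmah KO mdx minus mdx the median was -0.26, and -0.25 without the deviating array. With all arrays, Fbln2 had the smallest p in this comparison, at -1.70 ± 0.90 (adjusted p = 0.994).

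Cell markers in heart were read in mdx minus WT. There 8 of 9 fibroblast markers and 7 of 9 macrophage markers lay below 0 (medians -0.15 and -0.16), as did 6 of 7 tendon markers (median -0.61). The summed fibroblast intensity was 10076 to 13610 in Cmah KO mdx, 9485 to 12007 in mdx, 9989 to 12142 in Cmah KO and 11441 to 13775 in WT hearts. Skeletal muscle markers summed to between 433 and 15792 over the heart arrays, so these arrays differed widely in that signal. The part of these in the heart values was not tested.

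The effect of dystrophin loss was next compared between the tissues over all 24 arrays, with the animal as a random block, as the heart difference minus the gastrocnemius difference. Postn, Cthrc1 and Bgn were called, all with the heart below the gastrocnemius, which is 3 of 35 where 0.789% of 13684 genes were called in that direction and 0.848% in either. Postn differed by -1.49 in heart and 2.09 in gastrocnemius, and the difference of these was -3.58 ± 0.55 (95% interval -4.71 to -2.44, adjusted p from limma = 0.00249). For Cthrc1 the values were -1.20 in heart and 2.83 in gastrocnemius, a difference of -4.03 ± 0.68 (adjusted p = 0.00524). For Bgn they were -0.34 and 0.98, a difference of -1.32 ± 0.29 (adjusted p = 0.0435). With the animal as a fixed effect, which compares the tissues within each animal, the adjusted p was 0.131 for Bgn, 0.0197 for Postn and 0.0417 for Cthrc1.

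Postn and Cthrc1 kept this call whichever of the 24 arrays was left out (adjusted p up to 0.00957 and 0.0186). Bgn kept it only without heart Cmah KO mdx replicate 2, heart Cmah KO replicate 3 or gastrocnemius Cmah KO mdx replicate 1, with adjusted p between 0.00593 and 0.130. Over all 35 genes 34 lay below 0, against 39.5% of all genes, and the median was -0.94 against 0.14. Without the 2 deviating heart arrays 18 of 35 were called, all lower, against 3.71% of all genes, all 35 lay below 0, against 50.1%, and the median was -1.30 against 0.00 over all genes. The 18 were Col3a1, Col5a2, Col5a3, Col6a1, Col6a2, Col6a3, Col8a1, Col14a1, Fn1, Postn, Cthrc1, Bgn, Aspn, Vcan, Eln, Mfap4, Mfap5 and Lox. Col8a1 had the smallest adjusted p among those not called with all arrays (-2.52 ± 0.27, adjusted p = 6.34e-05, against -1.57 ± 0.82 with all arrays). These calls rest on the brightest probe sets. With all arrays, further Col8a1 probe sets passed at -2.16 and -2.38 (adjusted p from limma = 0.00626 and 0.00597). A dim Tnc probe set, averaging 4.00, passed at -3.11 (adjusted p = 0.0401). Further Bgn probe sets gave -1.69 (adjusted p = 0.0147) and -1.25 (adjusted p = 0.0554, not called).

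The levels of the matrix genes in the tissues, over all genotypes, were compared last. Read at the brightest probe sets, heart had lower levels of 23 of the 35 genes and higher levels of none, where 19.5% of all genes were called lower and 11.5% higher. The median difference, heart minus gastrocnemius, was -1.07, against -0.12 over all genes. In 5 genes (Col1a1, Col1a2, Col5a3, Col6a1 and Col6a3) all 12 heart arrays lay below all 12 gastrocnemius arrays, against 3.7% of all genes. All 6 fibrillar collagens and all 3 collagen VI chains were lower in heart, with medians of -2.01 and -1.86. None of the 6 proteoglycans was called at its brightest probe set (median -0.07).

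The 5 smallest p values belonged to Col5a3, Col6a3, Col6a1, Col1a2 and Col12a1. In heart Col5a3 read 6.47, 5.88 and 6.28 in Cmah KO mdx, 6.44, 5.74 and 6.34 in mdx, 6.61, 6.62 and 3.88 in Cmah KO and 6.92, 5.95 and 6.73 in WT hearts, and it averaged 6.15 over the heart arrays and 8.88 over the gastrocnemius arrays. The difference was -2.73 ± 0.24 (adjusted p from limma = 1.09e-08). Col6a3 read 7.09, 8.55 and 7.92 in Cmah KO mdx, 8.35, 7.76 and 8.16 in mdx, 8.08, 8.29 and 6.35 in Cmah KO and 8.67, 8.06 and 8.89 in WT hearts, and the difference was -2.25 ± 0.20 (adjusted p = 1.82e-08). Every heart array of both genes was below the lowest gastrocnemius array.

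Col6a1 read 9.86, 10.81 and 9.80 in Cmah KO mdx, 9.84, 9.95 and 9.76 in mdx, 10.44, 10.05 and 8.80 in Cmah KO and 10.10, 9.89 and 10.67 in WT hearts, a difference of -1.66 ± 0.17. Col1a2 read 10.31, 10.17 and 10.47 in Cmah KO mdx, 10.79, 10.47 and 10.74 in mdx, 10.90, 10.80 and 8.08 in Cmah KO and 10.86, 10.78 and 11.57 in WT hearts, a difference of -2.20 ± 0.23, with the deviating Cmah KO replicate 3 lowest. Col12a1 read 3.75, 2.90 and 4.42 in Cmah KO mdx, 5.31, 2.67 and 4.71 in mdx, 4.32, 4.91 and 6.10 in Cmah KO and 5.16, 3.78 and 6.21 in WT hearts, a difference of -3.27 ± 0.34. Of its 12 heart arrays 7 lay below the 40th percentile of heart (4.78), so its heart level is near background and the size of the difference is uncertain. For these 3 genes the adjusted p was 1.11e-07, 1.33e-07 and 1.38e-07.

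Other genes that were lower in heart by more than 2 on the log2 scale were Tnc (-3.00 ± 0.37), Lox (-2.39 ± 0.36), Col5a1 (-2.15 ± 0.26) and Fn1 (-2.05 ± 0.22). Col5a2, Col6a2, Thbs1, Col1a1, Cthrc1, Fbln2, Thbs2, Col3a1 and Col14a1 were lower by between -1.86 and -1.07, and Pcolce, Loxl1, Mfap4, Eln and Sparc by between -0.998 and -0.48. Of these 23, Sparc, Eln and Mfap4 lost the call in 10, 13 and 5 of the 24 fits that left out an array. Postn (-0.12 ± 0.27, 95% interval -0.69 to 0.45), Bgn (-0.08 ± 0.15, -0.39 to 0.22), Col8a1 (0.09 ± 0.41, -0.76 to 0.94) and Ccn2 (0.12 ± 0.14, -0.18 to 0.41) were not called. Fbln1 was the highest in heart relative to gastrocnemius (0.77 ± 0.33, adjusted p = 0.0877), followed by Ogn (0.40 ± 0.23). Dimmer probe sets of both were called higher in heart, at 0.95 for Fbln1 and 1.01 for Ogn (adjusted p from limma = 0.000704 and 0.0219). Another Fbln1 probe set was not (1.11, adjusted p = 0.0814). With the mean of each gene's probe sets both were called higher, at 0.94 and 0.71 (adjusted p = 0.00926 and 0.0446).

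**Figure D4:**
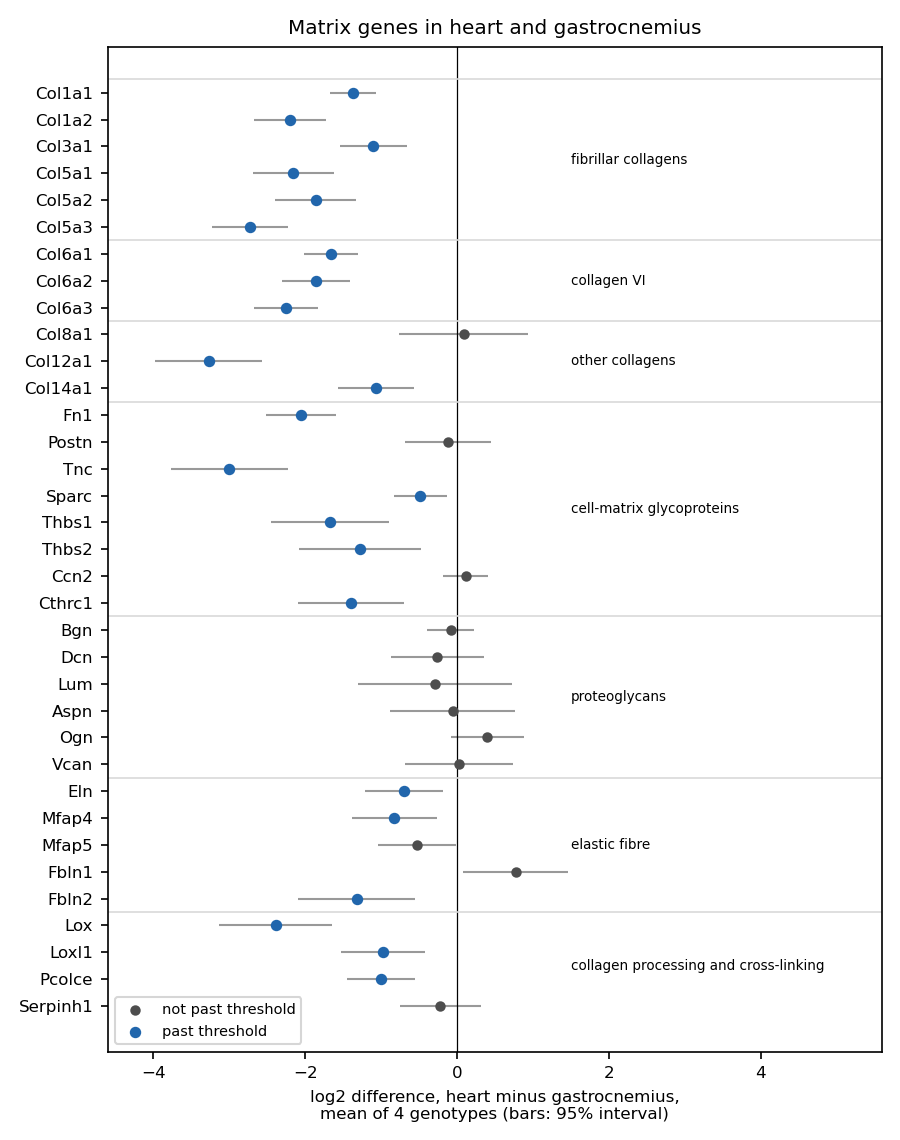
Log2 difference, heart minus gastrocnemius, over all genotypes (x axis) for the 35 matrix genes (rows, grouped by role). Points are fitted values with 95% intervals over 24 arrays, blue where the adjusted p is below 0.05. All fibrillar collagen and collagen VI points are blue and left of 0, and all 6 proteoglycan points are grey and near 0.

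Markers of other cells also differed between the tissues. All 7 tendon markers were lower in heart (median -3.64), their summed intensity being 322 to 1726 over heart arrays and 4675 to 9786 over gastrocnemius arrays, and none of the 7 was below the 40th percentile in either tissue. Of 9 fibroblast markers 5 were lower and 1 higher in heart (median -0.69), and 4 of 5 mesothelial and epicardial markers were higher (median 1.99). Without the 2 deviating heart arrays 23 of the 35 matrix genes were called lower in heart and 6 higher (Col8a1, Ccn2, Aspn, Ogn, Vcan and Fbln1), where 27.3% of all genes were called lower and 27.1% higher, and the median was -0.87. The part of tendon tissue in the collagen levels of gastrocnemius was not tested.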

How the data were processed

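The authors deposited linear intensity values for 45101 probe sets on each of 24 arrays, made with GCOS and RMA per the submitters' processing notes, and per the labels each array took 25 ng of RNA through a NuGEN Ovation amplification. Versions, background settings and how tissues were scaled together are not given in the sources used here. Array medians lay between 41.9 and 50.7. Precision is limited by the number of arrays.

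Leaving out 64 control probe sets, log2 of each value was used. Probe sets with at least 3 of 12 arrays above the 40th percentile of a tissue were tested with limma 3.58.1 under R 4.3.3 (lmFit, eBayes, two-sided, 4 group means per tissue), p being adjusted by Benjamini-Hochberg over all 29518 (gastrocnemius), 29421 (heart) or 31070 (both tissues) probe sets. Both-tissue fits used duplicateCorrelation on animal (consensus correlation 0.217, kept when an array was left out). The scripts were tested on simulated data. Standard errors come from limma.

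The members and lists were chosen with earlier results of these data known, so list counts and medians are descriptions and no p is given for a list. All arrays of a gene are given for up to 4 members of each role with the largest pooled change in gastrocnemius, for Col1a1, Col1a2, Col3a1, Fn1, Postn, Tnc and Sparc, and for up to 5 members with the smallest p between tissues and for Cmah in gastrocnemius, and every called member is named. Further heart values, and Cilp by array, were chosen after seeing values. Of the probe sets 34945 carry 1 symbol, 932 several and 9160 none in the platform annotation, and 34741 of the first matched a GRCm38.p6 gene by gene number. The labels give different animals as replicates. Same-numbered samples of different genotypes are different animals, so the main fits within a tissue used no block. Their deviations correlated between -0.56 and 0.59 in gastrocnemius (10 of 18 pairs over 0.1) and between -0.47 and 0.62 in heart (7 of 18). The median correlation was 0.18 for same-numbered and -0.09 for other pairs in gastrocnemius, and -0.08 and -0.03 in heart. In gastrocnemius, replicate number partly coincides with the high-control set. Alternatives covered the filter, scaling, log offset, variance model, array weights, probe set choice, blocks and each array left out. The high-control and deviating arrays were identified after seeing the data.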

Additional observations from a re-analysis of the deposited data

Results flagged for a closer look

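Dystrophin loss had a different effect in heart and in gastrocnemius for 3 matrix genes at their brightest probe sets, by limma's test of the difference itself over all 24 arrays. The heart effect minus the gastrocnemius effect was -3.58 for Postn, -4.03 for Cthrc1 and -1.32 for Bgn on the log2 scale. For Postn the heart effect was -1.49 and the gastrocnemius effect 2.09, and neither passed the threshold within its tissue. In heart the dystrophin-deficient arrays all lay below the Cmah KO and WT arrays, if only just for the closest pair, and in gastrocnemius they lay above all of these but WT replicate 1. Cthrc1 in heart was near the 40th percentile on most arrays, with WT replicates 2 and 3 above the rest. The Bgn difference was lost in 21 of 24 fits that left out an array and with the animal as a fixed effect (adjusted p from limma = 0.131). What sets the tissues apart was not tested.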

How the results depend on the processing

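For pooled dystrophin loss in gastrocnemius, the count of called matrix genes (3) was 1 with no filter (all genes 0.632%), 9 with array weights (3.94%), 11 with the high-control arrays as a block (chosen after seeing the data, and a block found from the arrays lowers the residual spread, 4.84%) and 0 to 5 when an array was left out. With the replicate number as a block it was 0 (all genes 0.915%), and the adjusted p of Cthrc1, Bgn and Col8a1 was 0.0512, 0.0627 and 0.0709. Same-numbered samples are different animals, so this block is given only as a check. In gastrocnemius, though, the deviations of same-numbered samples had a median correlation of 0.18, against -0.09 for other pairs. The high-control arrays there are replicate 1 in Cmah KO mdx, mdx and Cmah KO but replicate 3 in WT. Replicate number thus partly coincides with the high-control set, and the replicate block sets its WT array apart from the rest. For Cmah KO mdx minus Cmah KO in gastrocnemius the count (0) was 7 with array weights (all genes 2.61%), 3 with the high-control block (1.47%) and 0 to 1 when an array was left out. For mdx minus WT hearts it was 2 with array weights (Tnc and Eln, both lower, all genes 0.572%). For the difference between the tissues in dystrophin loss the count (3) was 19 with array weights (all genes 7.9%), 18 without the 2 deviating heart arrays (4.49%), 5 with the mean of each gene's probe sets (0.855%) and 2 to 8 when an array was left out.

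In heart the median for Cmah KO minus WT (-1.03) was -0.41 with array weights, -0.41 without the deviating arrays, -0.25 with the high-control block as well, and -1.32 to -0.41 when an array was left out. The median of the interaction (0.77) was -0.23 with array weights, 0.083 without the deviating arrays, with or without the block, and 0.11 to 1.09 when an array was left out. Col8a1 in pooled dystrophin loss in heart (-0.08) was 0.14 after quantile normalization and -1.07 to 0.47 when an array was left out, 0.47 and 0.34 without Cmah KO replicates 1 and 2. In Cmah KO mdx minus Cmah KO hearts it was 0.87, against -0.98 with array weights, -0.28 with the mean of probe sets, -1.05 without the deviating arrays (with or without the block) and -1.10 to 1.98 when an array was left out (-1.10 without Cmah KO replicate 3). The cause was not tested, except that the deviating arrays are absent from the last settings.

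Fitted over both tissues together, the adjusted p for pooled dystrophin loss in gastrocnemius was 0.663 for Col8a1, 0.0514 for Bgn and 0.0234 for Postn. The Col8a1 difference itself stayed at 1.49, with a standard error of 0.66 against 0.29 in gastrocnemius alone. The joint fit estimates 1 spread over both tissues, the deviating heart arrays included. The tissue difference of Bgn also missed the threshold with median centring (0.0630) and no filter (0.0691), and the Fcgr1 call with no filter (0.0650) and the replicate block (0.0683). Some medians moved by over 1.5 times when an array was left out, though by less than 1 SD of the replicates. In gastrocnemius mdx minus WT (0.63) ran between 0.38 without WT replicate 3 and 0.86, Cmah KO minus WT (-0.25) between -0.39 and -0.12 without WT replicates 3 and 1, and the difference between the backgrounds (0.28) between 0.05 and 0.51 without mdx and Cmah KO mdx replicate 1. Without the same arrays Cmah KO mdx minus mdx in gastrocnemius (0.04) was -0.22 and 0.33, and it was -0.0042 with median centring, so it has no settled sign. In heart pooled dystrophin loss (-0.12) ran between -0.47 without Cmah KO replicate 3 and 0.0088 without Cmah KO replicate 2, mdx minus WT (-0.41) between -0.71 without WT replicate 2 and -0.28, Cmah KO mdx minus mdx (-0.26) between -0.45 and -0.08 without mdx replicate 2 and Cmah KO mdx replicate 1, and Cmah KO mdx minus Cmah KO (0.04) between -0.46 and 0.49 without Cmah KO replicates 3 and 2. The medians of pooled dystrophin loss in gastrocnemius, of Cmah KO mdx minus Cmah KO there, and of both comparisons between tissues moved by less than 1.5 times, and the counts of called matrix genes not given here by at most 1.5 times. The low number of arrays, and dim signal for Cthrc1, Tnc and Col12a1 in heart, limit what could be seen.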

Other observations

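Several matrix genes have more than 1 probe set, and the brightest did not always show the largest difference for pooled dystrophin loss in gastrocnemius. For Tnc a second probe set gave 1.76 (adjusted p from limma = 0.0576) where the brightest gave 1.24. For Col5a1 the values were 1.27 (adjusted p = 0.0597) and 0.99, for Col3a1 they were 0.80 (adjusted p = 0.0798) and 0.41, and for Col1a1 they were 0.38 and 0.03, the brightest last in each pair. None of these second probe sets passed the threshold.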
